A study of Mus musculus with 10 samples.

Results

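The genes described here encode the subunits of the BAF chromatin remodelling complex that are exchanged when a neural progenitor becomes a neuron, together with the ATPases of the complex. They were taken from the deposited table by gene name: Actl6a, Actl6b, Phf10, Dpf1, Dpf2, Dpf3, Ss18, Ss18l1, Smarca2 and Smarca4. All 10 names were found among the 53801 genes of the table, and all 10 passed the filter on low counts. NG2+ cells and GFAP+ cells, which the labels call neural stem cells, were isolated from the dorsal brain of wild-type mouse embryos, with 5 libraries for each population. All embryos had been electroporated in utero at embryonic day 12 with StarTrack, a set of reporter plasmids that marks the progeny of electroporated progenitors, and the cells were sorted at embryonic day 14. All 10 libraries belong to batch 1. How NG2 and GFAP were read in the sorter, and how many embryos or litters went into a library, is not stated in the labels, and the p-values therefore measure the spread between these libraries, which may be technical. RNA was amplified before poly(A) libraries were made, and the labels mention no molecular identifiers.

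The BAF complex uses the energy of ATP to slide or evict nucleosomes, and its ATPase is encoded by Smarca4 or Smarca2. Dividing neural progenitors build it with the actin-related protein Actl6a, the double PHD finger proteins Phf10 and Dpf2, and Ss18. Neurons that have left the cell cycle replace these with Actl6b, with Dpf1 and Dpf3, and with Ss18l1, a calcium-responsive coactivator that is also called CREST. In neurons, Actl6b and Ss18l1 are required for the growth of dendrites. The repressor REST holds down neuronal genes, among them the genes of miR-9 and miR-124, outside mature neurons, and the miR-9 passenger strand and miR-124 repress Actl6a through its 3′ untranslated region.

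Sequences from RefSeq (GRCm38.p6) and GENCODE M21 (GRCm38) are shown for Actl6a and Actl6b, the pair on which this exchange is best known. The mature miR-9-3p, encoded at 3 loci (Mir9-1 at chr3:88215652-88215673, Mir9-3 at chr7:79505318-79505339 and Mir9-2 at chr13:83738858-83738879, all on the plus strand), is given with its seed, bases 2 to 8, in capitals. Below it stands the match to that seed in the Actl6a 3′ untranslated region (chr3:32726625-32726649, plus strand), with the matching letters in capitals.
mmu-miR-9-3p: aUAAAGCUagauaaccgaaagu
Actl6a site: cacctcaacgtctgtAGCTTTAgta
The 7 letters AGCTTTA begin at base 38 of the 371-base 3′ untranslated region. They occurred in the longest 3′ untranslated region of 11.3% of the 20921 coding genes searched. Among the 10 genes, Actl6a and Smarca2 held 1 match each, and the other 8 held 0.

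The 250 bases before the RefSeq start site of each gene follow, Actl6b (chr5:137553296-137553545) first and Actl6a (chr3:32708296-32708545) after it, both on the plus strand. Capitals mark GC boxes, the letters GGGCGG on either strand.
Actl6b promoter: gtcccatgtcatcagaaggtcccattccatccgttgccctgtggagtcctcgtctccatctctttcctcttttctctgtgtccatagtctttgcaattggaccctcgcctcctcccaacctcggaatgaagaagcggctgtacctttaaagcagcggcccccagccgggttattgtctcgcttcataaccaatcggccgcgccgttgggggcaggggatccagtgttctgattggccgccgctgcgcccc
Actl6a promoter: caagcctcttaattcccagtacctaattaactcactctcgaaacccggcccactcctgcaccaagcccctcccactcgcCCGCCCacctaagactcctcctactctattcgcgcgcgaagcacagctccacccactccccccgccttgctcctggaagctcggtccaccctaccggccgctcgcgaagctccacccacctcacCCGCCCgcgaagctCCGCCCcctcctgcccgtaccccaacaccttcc
The table of promoters, which runs to 50 bases after the start site, held an entry for 9 of the 10 genes. A GC box lay in 8 of these 9 promoters and in 35.7% of all 32851. Those of Actl6b begin at bases -2 and 4 from its start site and are not contained in the stretch printed above. The promoter of Dpf2 held none. REST binds a long motif of which CAGCACC and GGACAG are the core letters on its left and right side. Both cores lay just after the Actl6b start site, on the strand opposite to the gene (chr5:137553565-137553592), and are shown in capitals.
Actl6b start site: gatCAGCACCgaggcggccGGACAGctc
They were 9 letters apart, a spacing chosen after the sequence was seen, and 4 of the 32851 promoters (0.0122%) held the cores in that arrangement. At the usual spacing of 2 letters, 12 promoters (0.0365%) held them and 0 of the 9 promoters of these genes did. These letters describe the sequence and were not set against any measurement of binding.

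Library totals lay between 14256176 and 17569730 counts for NG2 and between 12945436 and 16189859 for GFAP libraries. Cspg4, which encodes NG2, averaged 6.75 ± 1.47 CPM (counts relative to library size, corrected with TMM factors) in NG2 and 1.07 ± 0.356 CPM in GFAP libraries (SD, n = 5 each), without overlap (difference of 2.21 in log2(CPM + 0.5), two-sided exact permutation p = 0.00794, the smallest that the assignments of 5 and 5 libraries can give). Gfap was nearly absent, with 6 reads summed over NG2 and 10 over GFAP libraries (two-sided exact permutation p = 0.524), so a difference was not detectable at this depth. NG2 replicate 5 had reads for 18903 genes, against 22988 to 24444 in the other 9 libraries. Its log2 CPM correlated across genes at r = 0.919 to 0.929 with the others, which reached 0.968 to 0.986 among themselves. Although the labels name stem cells, both groups expressed Neurod6, a gene of postmitotic excitatory neurons, with a mean of 1968 CPM in NG2 libraries and 1646 CPM in GFAP libraries, beside the radial glia gene Fabp7 with 516 CPM in NG2 libraries and 531 CPM in GFAP libraries. GFAP replicate 2 had the lowest summed level of 13 neuron markers and the highest of 11 radial glia and 8 proliferation markers, as given with the results. Of 16187 genes tested, 24 (0.148%) passed edgeR's quasi-likelihood test at a Benjamini-Hochberg adjusted p of 0.05, 12 of them (0.0741%) higher and 12 lower in NG2.

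The progenitor and neuronal forms were expressed together in every library. Per gene length, Smarca4 was the most abundant of the 10 genes, at 109 ± 5.19 FPKM in NG2 and 111 ± 15.03 FPKM in GFAP libraries (reads scaled by gene length and library depth, SD, n = 5 each). Actl6a came next with 55.4 ± 2.67 FPKM in NG2 and 60.0 ± 6.44 FPKM in GFAP libraries. Actl6b stood at 36.3 ± 5.86 FPKM in NG2 and 24.7 ± 4.36 FPKM in GFAP libraries. Its rank among the 10 genes was 3 in NG2 replicates 1 to 4 and in GFAP replicate 4, 4 in NG2 replicate 5 and GFAP replicate 3, and 5 in GFAP replicates 1, 2 and 5.

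Dpf2 stood at 29.2 ± 3.50 FPKM in NG2 and 29.1 ± 2.90 FPKM in GFAP libraries. Ss18 was close to it, at 27.0 ± 2.52 FPKM in NG2 and 27.8 ± 4.96 FPKM in GFAP libraries. The neuronal forms Dpf1 and Ss18l1 followed, with 23.0 ± 5.70 and 21.2 ± 3.96 FPKM in NG2 libraries, against 16.6 ± 2.54 and 15.3 ± 0.964 FPKM in GFAP libraries. Phf10 reached 8.95 ± 1.31 FPKM in NG2 and 9.26 ± 0.892 FPKM in GFAP libraries, and Smarca2 8.57 ± 0.865 FPKM in NG2 and 7.41 ± 0.943 FPKM in GFAP libraries. Dpf3 was the lowest, at 1.16 ± 0.490 FPKM in NG2 and 1.54 ± 0.316 FPKM in GFAP libraries. Over the 10 libraries the ranges of Smarca4, Actl6a and Dpf3 touched those of no other member. Neighbours in the order from Actl6b to Ss18l1 overlapped, as did Phf10 with Smarca2.

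**Figure D1:**
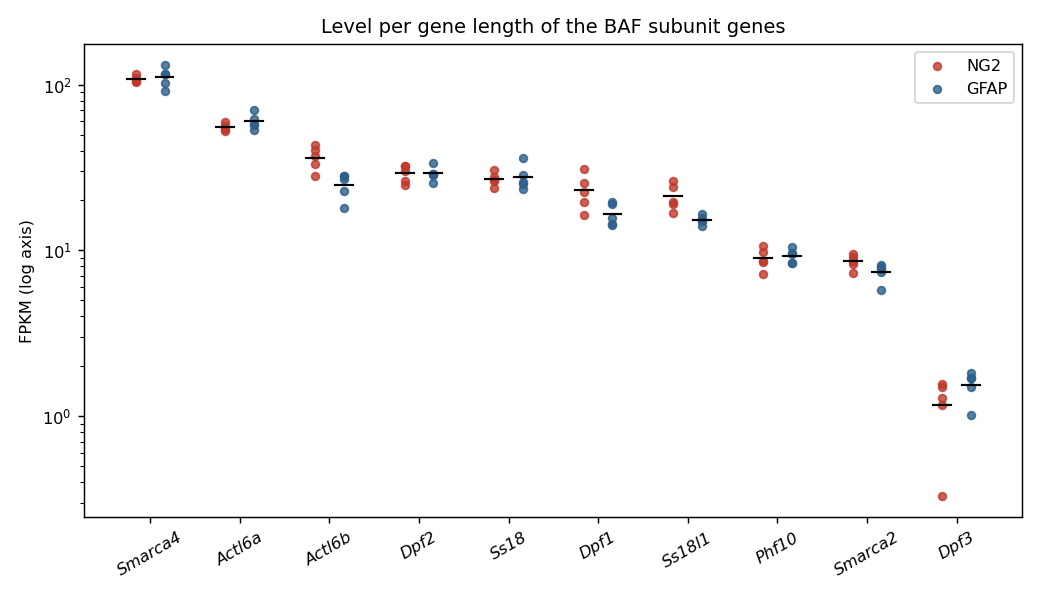
FPKM of the 10 BAF genes in each library on a log axis, ordered by mean, with NG2 in red left of GFAP in blue and a black line at each group's mean. Smarca4 lies highest at 91.4 to 131 FPKM and Dpf3 lowest at 0.330 to 1.81 FPKM.

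Among the neuronal forms, Actl6b, Ss18l1 and Dpf1 had the largest positive differences of the 10 genes, with fold changes of 1.45, 1.38 and 1.37 (NG2 over GFAP), but they did not pass edgeR's test over all genes. By edgeR, 0 of the 10 genes passed in either direction, beside 0.148% of all genes tested called in either direction and 0.0741% called higher. At an unadjusted p under 0.05 these 3 were higher and 0 were lower, beside 6.45% of all genes higher, 6.33% lower and 12.8% in either direction. The median log2 fold change of the 10 was -0.03, against -0.01 over all genes tested, with 4 above and 6 below 0. DESeq2 called 2 of the 10 higher and 0 lower, Actl6b and Ss18l1, beside 1.39% of the genes it tested called higher, 0.896% lower and 2.29% in either direction. The authors' deposited table lists the same 2 with an adjusted p under 0.05, as higher in NG2, beside 0.711% of its 28533 genes with a p. Its log2 fold changes, 0.554 for Actl6b and 0.475 for Ss18l1, are the same as those of the DESeq2 fit. The deposited list is therefore not counted as separate from that fit. With voom and sample weights Actl6b and Dpf1 were called higher and 0 lower, beside 3.61% of all genes tested called higher and 5.29% called lower. In bulk samples, fewer cells of a type and less RNA per cell cannot be told apart, and this holds for every difference given here.

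Actl6b (ENSMUSG00000029712, chromosome 5, 137553517 to 137569582, plus strand, GRCm38) encodes the actin-related subunit of the neuronal complex. It had 141, 185, 172, 159 and 122 CPM in NG2 replicates 1 to 5, against 122, 77.6, 121, 116 and 98.5 CPM in GFAP replicates 1 to 5. NG2 replicates 1 to 4 exceeded every GFAP library, while NG2 replicate 5 lay level with GFAP replicate 1, and GFAP replicate 2 was the lowest of the 10. In CPM these 2 libraries made the groups overlap, at 122.00 CPM in NG2 replicate 5 and 122.02 CPM in GFAP replicate 1. In FPKM the lowest NG2 value was 28.3 and the highest GFAP value 28.1, so the groups met with a narrow gap. The share of all genes without overlap in FPKM was not computed. Its log2 fold change was 0.54 (SE 0.14, edgeR, Benjamini-Hochberg adjusted p = 0.149). Without NG2 replicate 5 it was 0.62 (SE 0.13, adjusted p = 0.0419, where 0.425% of genes were called higher) and without GFAP replicate 2 it was 0.45 (SE 0.12, adjusted p = 0.169). With both of these libraries left out, an alternative chosen after seeing the data, it was 0.52 (SE 0.10, edgeR adjusted p = 0.0283), beside 0.669% of genes called higher in that fit. By DESeq2 the adjusted p was 0.0172, in the authors' deposited table it was 0.0165, and by voom with sample weights it was 0.00655.

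Ss18l1 (ENSMUSG00000039086, chromosome 2, 180042509 to 180070201, plus strand) encodes the neuronal counterpart of Ss18. It had 82.5, 106, 85.5, 73.4 and 116 CPM in NG2 replicates 1 to 5, against 66.1, 61.5, 73.0, 66.3 and 69.1 CPM in GFAP replicates 1 to 5. It was the 1 gene of the 10 whose groups did not overlap in CPM, beside 1.52% of all genes tested with NG2 above GFAP and 3.28% in either direction, although NG2 replicate 4 and GFAP replicate 3 were close. Fitted over all genes, its log2 fold change was 0.46 (SE 0.12, edgeR adjusted p = 0.153). The highest value came from NG2 replicate 5, without which it was 0.37 (SE 0.11, edgeR adjusted p = 0.111). By DESeq2 the adjusted p was 0.0231 and in the authors' deposited table it was 0.0222, while voom with sample weights gave a log2 fold change of 0.19 (adjusted p = 0.158).

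Dpf1 (ENSMUSG00000030584, chromosome 7, 29303951 to 29318243, plus strand) encodes a histone-reading PHD finger subunit of the neuronal complex. It had 105, 168, 138, 122 and 88.4 CPM in NG2 replicates 1 to 5, against 104, 77.6, 107, 85.6 and 78.6 CPM in GFAP replicates 1 to 5. NG2 replicates 2, 3 and 4 exceeded every GFAP library, and NG2 replicates 1 and 5 lay within their range. The log2 fold change was 0.46 (SE 0.16, edgeR adjusted p = 0.272), 0.56 (SE 0.14, adjusted p = 0.0670) without NG2 replicate 5, and 0.40 (SE 0.10, adjusted p = 0.0253) by voom with sample weights. Dpf1 overlaps the antisense gene Gm44632, and the strand setting of the counting is not given, so the origin of part of its reads is uncertain. Another annotated gene overlaps 7 of the 10 genes, and none overlaps Actl6b, Dpf3 or Ss18l1.

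Dpf3 (ENSMUSG00000021221, chromosome 12, 83213745 to 83487716, minus strand), the other PHD finger subunit of the neuronal complex, had a lower mean in NG2 than in GFAP libraries. It was counted with 25 to 119 reads a library, at 6.55, 4.96, 5.42, 6.33 and 1.41 CPM in NG2 replicates 1 to 5, against 7.26, 4.33, 7.29, 7.77 and 6.47 CPM in GFAP replicates 1 to 5. The groups overlapped, and NG2 replicate 5 and GFAP replicate 2 were the lowest of their groups. Its log2 fold change of -0.43 (SE 0.33, edgeR adjusted p = 0.632) was -0.18 (SE 0.21) without NG2 replicate 5.

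**Figure D2:**
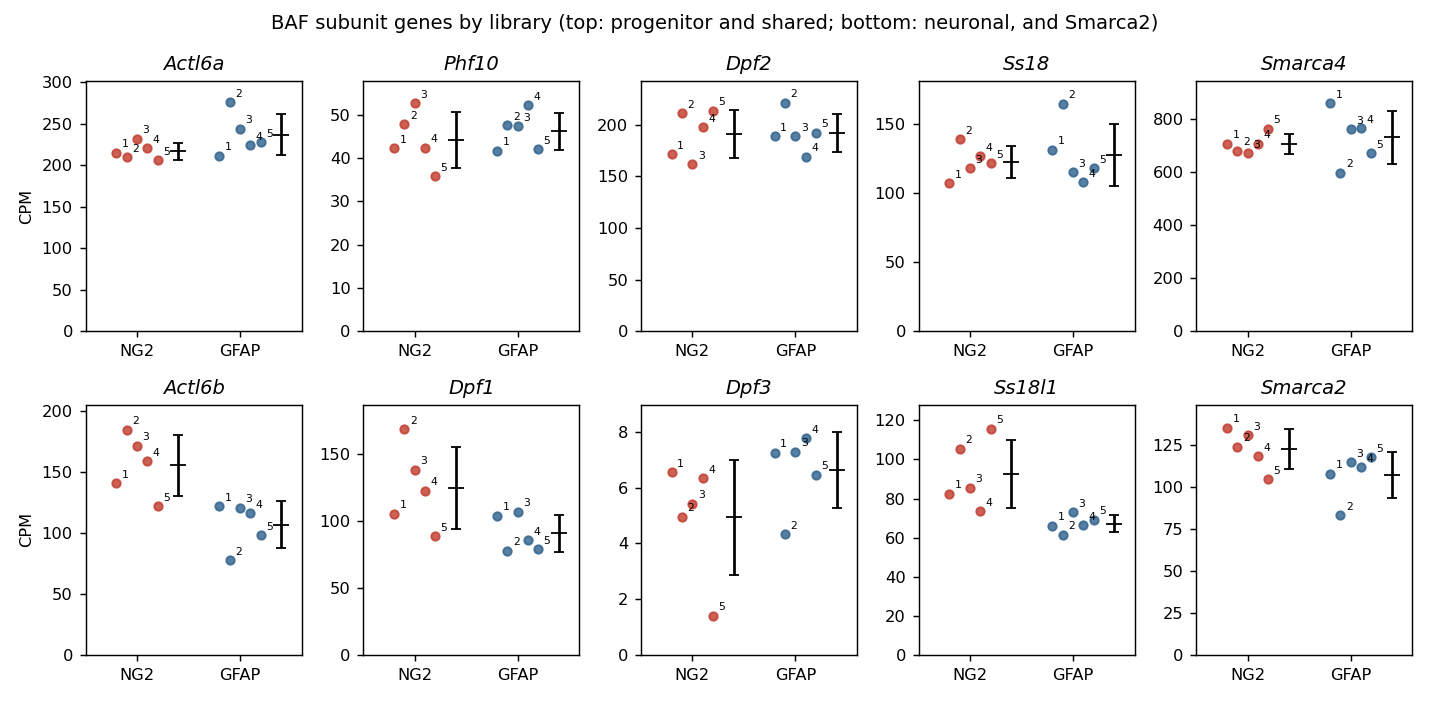
CPM of the 10 genes in each library, with NG2 in red left of GFAP in blue, replicate numbers beside the points, and black bars for mean ± SD (n = 5). Actl6b reaches 185 CPM in NG2 replicate 2 and is lowest at 77.6 CPM in GFAP replicate 2, while Actl6a is highest there at 276 CPM.

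The progenitor forms had fold changes closer to 1 than Actl6b, Ss18l1 and Dpf1. Actl6a (ENSMUSG00000027671, chromosome 3, 32706298 to 32726973, plus strand), which progenitors need in order to divide, had 215, 210, 232, 220 and 206 CPM in NG2 replicates 1 to 5, against 212, 276, 244, 224 and 228 CPM in GFAP replicates 1 to 5. The groups overlapped, with GFAP replicate 2 the highest of the 10. The fold change on the log2 scale was -0.13 (SE 0.09, edgeR adjusted p = 0.590), and -0.07 (SE 0.08) without GFAP replicate 2. Actl6a overlaps Mrpl47 on the opposite strand, so part of its reads is of uncertain origin.

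Ss18 (ENSMUSG00000037013, chromosome 18, 14624198 to 14682914, minus strand), the progenitor coactivator, had 107, 139, 118, 127 and 122 CPM in NG2 replicates 1 to 5, against 132, 165, 115, 108 and 118 CPM in GFAP replicates 1 to 5. GFAP replicate 2 was again the highest, and the ranges of the groups overlapped. The log2 fold change of -0.06 (SE 0.12, edgeR adjusted p = 0.883) was 0.06 (SE 0.10) without that library. Phf10 (ENSMUSG00000023883, chromosome 17, 14945009 to 14961273, minus strand), a PHD finger subunit of progenitors that also belongs to the related PBAF complex, ranged from 35.7 to 52.6 CPM in NG2 and from 41.7 to 52.1 CPM in GFAP libraries (log2 fold change -0.06, SE 0.12, edgeR adjusted p = 0.866). It overlaps the coding gene 1600012H06Rik on the opposite strand, with the same uncertainty. Dpf2 (ENSMUSG00000024826, chromosome 19, 5896516 to 5913010, minus strand), its broadly expressed relative, ranged from 162 to 214 CPM in NG2 and from 169 to 221 CPM in GFAP libraries (log2 fold change -0.01, SE 0.10, edgeR adjusted p = 0.988).

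The ATPase genes were unequal in level and close between the groups. Smarca4 (ENSMUSG00000032187, chromosome 9, 21616169 to 21704230, plus strand), which encodes BRG1, the main ATPase of embryonic progenitors, had 708, 682, 672, 707 and 764 CPM in NG2 replicates 1 to 5, against 862, 598, 762, 766 and 673 CPM in GFAP replicates 1 to 5. The NG2 values lay inside the wider GFAP range. On the log2 scale the fold change was -0.05 (SE 0.10, edgeR adjusted p = 0.873). Smarca2 (ENSMUSG00000024921, chromosome 19, 26605050 to 26778322, plus strand), which encodes the alternative ATPase BRM, had 136, 124, 131, 118 and 105 CPM in NG2 replicates 1 to 5, against 108, 83.5, 115, 112 and 118 CPM in GFAP replicates 1 to 5. NG2 replicates 1 to 4 exceeded every GFAP library and NG2 replicate 5 lay below 4 of them. The log2 fold change was 0.20 (SE 0.11, edgeR adjusted p = 0.470), and 0.12 (SE 0.09, adjusted p = 0.584) without GFAP replicate 2.

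**Figure D3:**
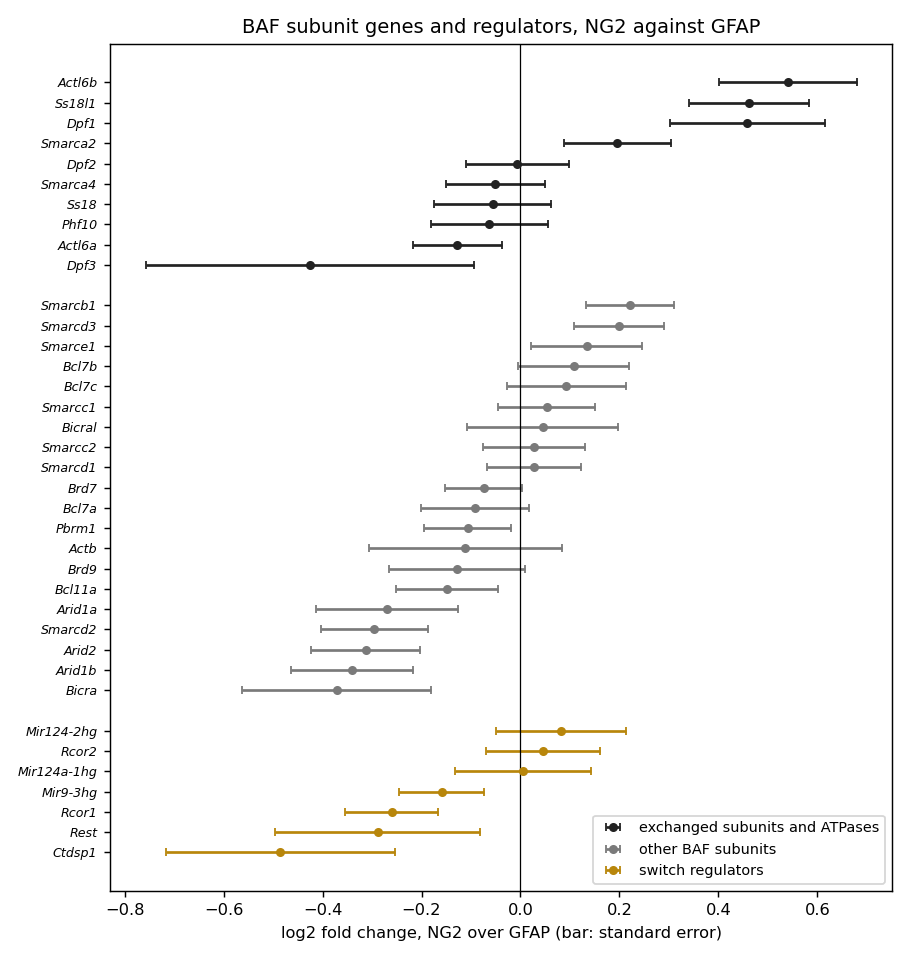
Log2 fold changes of NG2 over GFAP with their standard errors for the 10 exchanged subunits and ATPases (black), the other BAF subunits (grey) and regulators of the exchange (gold). Actl6b, Ss18l1 and Dpf1 lie at 0.54, 0.46 and 0.46, and Dpf3, at -0.43, has the widest bar.

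Ratios of FPKM within a library do not depend on depth or scaling, and they are given as a description, with no test. The log2 ratio of Actl6b over Actl6a was -0.74, -0.32, -0.57, -0.61 and -0.89 in NG2 replicates 1 to 5, against -0.93, -1.96, -1.15, -1.08 and -1.34 in GFAP replicates 1 to 5. The groups did not overlap, all 5 NG2 values being the higher, with NG2 replicate 5 and GFAP replicate 1 next to each other. How often ratios of other gene pairs do not overlap was not computed. As a share of the pair, Actl6b made up 39.4% ± 3.53 in NG2 and 29.3% ± 5.42 in GFAP libraries (SD, n = 5 each). The difference of the log2 ratio was 0.67, and 0.50 without GFAP replicate 2.

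The ratio of Ss18l1 over Ss18 averaged -0.36 ± 0.26 in NG2 and -0.85 ± 0.32 in GFAP libraries on the log2 scale (SD, n = 5 each). NG2 replicate 4, at -0.73, lay below GFAP replicates 3, 4 and 5, and the groups overlapped. Dpf1 over Phf10 averaged 1.34 ± 0.21 in NG2 and 0.83 ± 0.27 in GFAP libraries, where the overlap came from NG2 replicates 1 and 5 and GFAP replicate 1, at 1.18 to 1.19. Dpf3 over Phf10 went the other way, at -3.11 ± 0.80 in NG2 and -2.61 ± 0.36 in GFAP libraries, with the lowest value of -4.45 in NG2 replicate 5. The difference of -0.50 was -0.17 without that library. No ratio was taken over Dpf2, the other PHD finger form of progenitors. Its means of 29.2 FPKM in NG2 and 29.1 FPKM in GFAP libraries exceeded those of Dpf1, 23.0 FPKM in NG2 and 16.6 FPKM in GFAP libraries. Smarca2 over Smarca4 stood at -3.67 ± 0.21 in NG2 and -3.91 ± 0.17 in GFAP libraries, so Smarca2 made up 7.34% ± 0.920 of the pair in NG2 and 6.26% ± 0.721 in GFAP libraries.

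**Figure D4:**
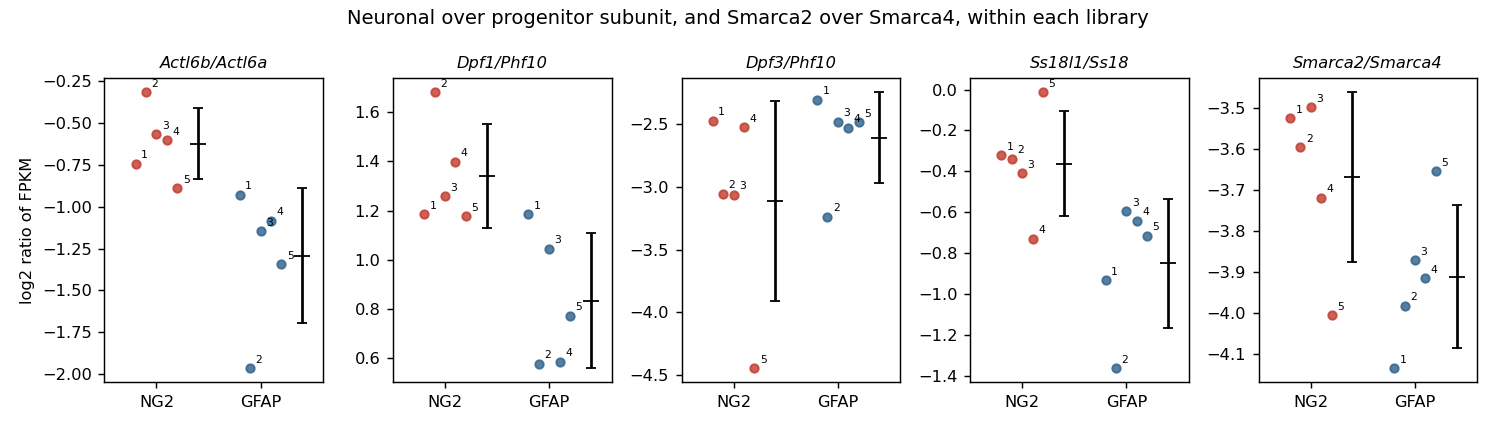
Log2 FPKM ratios of the neuronal over the progenitor form, and of Smarca2 over Smarca4, in each library, with NG2 in red left of GFAP in blue and mean ± SD in black (n = 5). In the Actl6b/Actl6a panel the NG2 libraries lie between -0.89 and -0.32 and the GFAP libraries between -1.96 and -0.93.

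Marker lists of the cell types that these libraries could hold are given beside the BAF genes. The summed level of 13 neuron markers, all found and led by Neurod6, ranged from 6396 to 9266 CPM in NG2 and from 5052 to 6529 CPM in GFAP libraries. All 13 had a positive log2 fold change (median 0.35). By edgeR 0 passed, with 8 higher at an unadjusted p under 0.05, beside 6.45% of all genes tested. DESeq2 and voom called 4 higher each, beside 1.39% and 3.61% of the genes they tested. The sum of 11 radial glia markers, the stem cells that line the ventricle, ranged from 1127 to 1918 CPM in NG2 and from 1817 to 2681 CPM in GFAP libraries, with 11 negative fold changes (median -0.47). By edgeR 0 of these passed, with 6 lower at an unadjusted p under 0.05, beside 6.33% of all genes tested. DESeq2 called 3 and voom 1 lower, beside 0.896% and 5.29% of the genes they tested. The sum of 8 proliferation markers ranged from 1480 to 1899 CPM in NG2 and from 1671 to 2983 CPM in GFAP libraries. All 8 fold changes were negative (median -0.25). At an unadjusted p under 0.05, 2 were lower, beside 6.33% of all genes tested, and 0 were called by edgeR, DESeq2 or voom. GFAP replicate 2, with an Actl6b share of 20.4%, had the lowest neuron sum of 5052 CPM, the highest radial glia sum of 2681 CPM and the highest proliferation sum of 2983 CPM. NG2 replicate 2, with the highest Actl6b share of 44.5%, had the lowest radial glia sum of 1127 CPM, while the highest neuron sum of 9266 CPM was in NG2 replicate 3, with an Actl6b share of 40.3%. NG2 replicate 5 had the highest Ss18l1 over Ss18 ratio, -0.01, with the lowest neuron sum (6396 CPM) and the highest proliferation sum (1899 CPM) of the NG2 libraries. The part of these cell types in the differences of the BAF genes was not tested.

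GFAP replicate 2 was the highest of the 10 libraries for Actl6a, Dpf2 and Ss18, and the lowest for Actl6b, Dpf1, Ss18l1, Smarca2 and Smarca4. The sum of 7 microglia markers ranged from 17.5 to 250.3 CPM in NG2 and from 30.7 to 122 CPM in GFAP libraries, with 7 positive fold changes (median 0.85), of which 0 reached an unadjusted p under 0.05 by edgeR. The sum of 5 meningeal fibroblast markers ranged from 3.14 to 15.8 CPM in NG2 and from 9.92 to 20.2 CPM in GFAP libraries, and that of 6 endothelial markers from 0.11 to 18 CPM in NG2 and from 2.66 to 21.8 CPM in GFAP libraries. The sum of 6 GABAergic lineage markers ranged from 62.4 to 201 CPM in NG2 and from 106 to 196 CPM in GFAP libraries. That of 7 intermediate progenitor markers ranged from 2054 to 2305 CPM in NG2 and from 2295 to 2613 CPM in GFAP libraries, with 2 positive and 5 negative fold changes (median -0.21). By edgeR 0 of the 7 passed, with 3 lower at an unadjusted p under 0.05, beside 6.33% of all genes tested. DESeq2 and voom called 2 lower each, beside 0.896% and 5.29% of the genes they tested. Eomes and Btg2, genes of intermediate progenitors chosen for mention after their values were seen, lay lower in NG2 without overlap between the groups. Of all genes tested, 1.76% lay lower and 1.52% higher in NG2 without overlap. On the log2 scale Eomes stood at -0.40 (SE 0.09, edgeR adjusted p = 0.122) and Btg2 at -0.45 (SE 0.09, edgeR adjusted p = 0.0726). Of the same 7 genes, Insm1 (0.11) and Sstr2 (0.13) had positive log2 fold changes, and their groups overlapped. Among the other markers, Stmn2, Rtn1 and Gap43 of neurons lay higher in NG2 without overlap. Sox9 and Id4 of radial glia and Gja1 of astrocytes lay lower in NG2 without overlap. The 6 erythroid markers summed to 256 to 501 CPM in NG2 and 242 to 451 CPM in GFAP libraries, the 4 oligodendrocyte lineage markers to 1.04 to 12.6 CPM in NG2 and 3.79 to 7.68 CPM in GFAP, and the 4 astrocyte markers to 24.97 to 53.0 CPM in NG2 and 36.2 to 59.1 CPM in GFAP libraries. Of these lists, 1 astrocyte marker, Gja1, was lower at an unadjusted p under 0.05 by edgeR and was called lower by DESeq2 and voom (log2 fold change -0.69, SE 0.17, edgeR adjusted p = 0.128). Of the 3 astrocyte markers tested, 1 had a positive and 2 a negative log2 fold change. The positive one was Aldh1l1 (0.75, SE 0.37, edgeR adjusted p = 0.418), whose groups overlapped. All 5 meningeal markers had a negative log2 fold change (median -0.73), and 1 was lower at an unadjusted p under 0.05 by edgeR. Of the 6 erythroid markers, 4 had a positive and 2 a negative log2 fold change, and voom called 1 higher. Beside these, 6.33% of all genes tested were lower at an unadjusted p under 0.05 by edgeR. DESeq2 called 0.896% lower, and voom called 5.29% lower and 3.61% higher. No marker of these lists was at 0 in every library, and their part in the results was not tested.

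**Figure D5:**
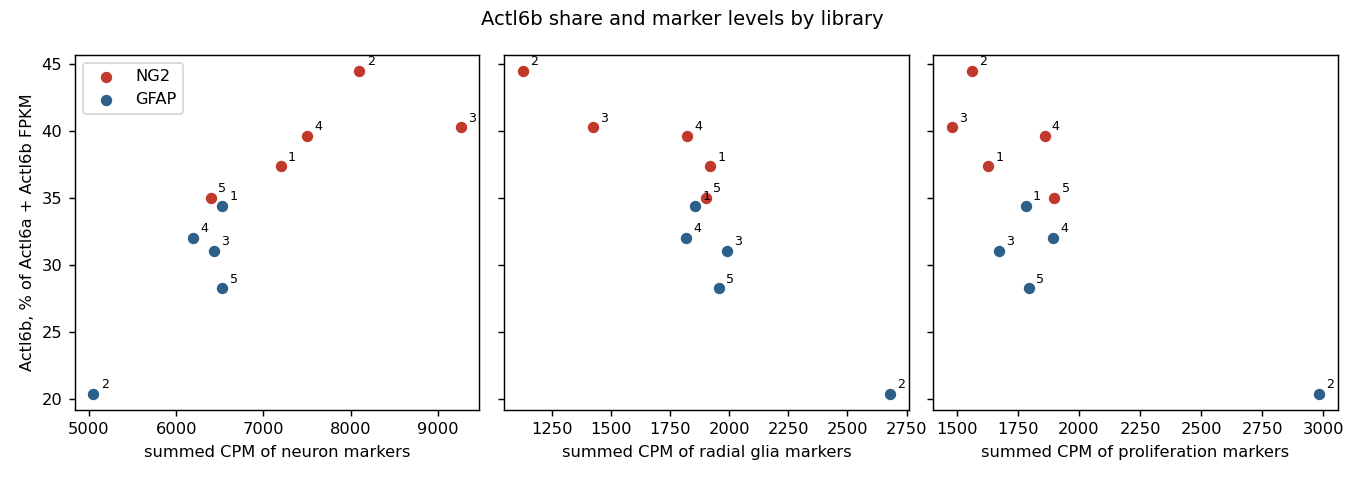
Share of Actl6b in the summed FPKM of Actl6a and Actl6b (percent) against the summed CPM of neuron, radial glia and proliferation markers, with 1 point for each library, its replicate number beside it, NG2 in red and GFAP in blue. GFAP replicate 2 stands alone at 20.4%, and the other GFAP libraries lie between 28.3% and 34.4%, below the NG2 libraries at 35.0% to 44.5%.

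The remaining subunits of the complex did not pass either. Of 21 listed, 1 is not analysed here and 20 were tested, of which 9 lay above 0 and 11 below 0 in log2 fold change (median -0.08, against -0.01 over all genes tested). By edgeR 0 were called in either direction. At an unadjusted p under 0.05, 2 were higher and 3 lower, beside 6.45% and 6.33% of all genes tested. DESeq2 called 0, and voom with sample weights called Smarcb1 higher and Arid2 and Arid1b lower, beside 3.61% of all genes tested called higher and 5.29% called lower. Arid2, the DNA-binding subunit of the PBAF complex, averaged 108 ± 11.995 CPM in NG2 libraries and 134 ± 16.8 CPM in GFAP libraries (log2 fold change -0.31, SE 0.11, edgeR adjusted p = 0.281). Arid1b, a DNA-binding subunit of BAF, averaged 51.7 ± 7.67 CPM in NG2 libraries and 65.4 ± 8.15 CPM in GFAP libraries (-0.34, SE 0.12, edgeR adjusted p = 0.292). The core subunit Smarcd2 averaged 36.1 ± 3.90 CPM in NG2 libraries and 44.2 ± 3.19 CPM in GFAP libraries (-0.30, SE 0.11, edgeR adjusted p = 0.292). Smarcb1, a core subunit that contacts the nucleosome, averaged 443 ± 43.6 CPM in NG2 libraries and 380 ± 20.8 CPM in GFAP libraries (0.22, SE 0.09, edgeR adjusted p = 0.322). For these 4 genes the groups overlapped.

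Regulators of the exchange were tested as a list of 7, with REST, its corepressor and phosphatase partners and the host transcripts of the microRNAs. By edgeR 0 passed. At an unadjusted p under 0.05 Rcor1 was the 1 lower gene and 0 were higher, beside 6.33% and 6.45% of all genes tested. DESeq2 called 0 and voom with sample weights called Rcor1 lower, beside the same 5.29%. Rest averaged 21.0 ± 7.45 CPM in NG2 libraries and 25.7 ± 4.38 CPM in GFAP libraries (SD, n = 5 each, log2 fold change -0.29, SE 0.21, edgeR adjusted p = 0.602). Its highest value, 33.0 CPM, was in NG2 replicate 5, and the other NG2 libraries had 13.8 to 22.8 CPM, against 20.9 to 31.3 CPM in GFAP libraries. Rcor1, which encodes the corepressor CoREST, had 62.4 to 81.6 CPM in NG2 and 83.6 to 96.3 CPM in GFAP libraries and did not overlap, beside 1.76% of all genes tested with NG2 below GFAP (-0.26, SE 0.09, edgeR adjusted p = 0.292). Ctdsp1, a phosphatase that acts with REST, averaged 4.97 ± 1.44 CPM in NG2 libraries and 6.96 ± 1.19 CPM in GFAP libraries (-0.49, SE 0.23, edgeR adjusted p = 0.399). Mir9-3hg, a host transcript of miR-9, averaged 171 ± 9.64 CPM in NG2 libraries and 191 ± 15.7 CPM in GFAP libraries (-0.16, SE 0.09, edgeR adjusted p = 0.463). The mature microRNAs themselves are not measured by poly(A) libraries.

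Genes whose level followed Actl6b or Actl6a most closely from library to library were taken by Pearson's r of log2 CPM over the 10 libraries, after each group's mean was subtracted, among 10221 coding genes. Among the closest to Actl6b were the orphan receptor gene Gpr27 (r = 0.970), the Polycomb-associated Phf1 (0.957), Creld1 (0.945) and Sfxn3 (0.943). Closest to Actl6a were Nit2 (r = 0.976), Pdzd11 (0.961), the histone variant gene H2afz (0.958), Chrac1, which encodes a subunit of another chromatin remodeller (0.955), and the centromere protein gene Cenpw (0.952). These r values are the highest among many genes over few libraries, 2 of which stand apart, and are a description.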

How the data were processed

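The authors deposited raw read counts, 1 column a library, for 10 libraries. The submitters' processing notes name HISAT2, featureCounts 1.5.0-p3 and the build GRCm38.p6, with no strand setting or annotation release. FPKM values were used as deposited by the authors. The authors' deposited comparison gives, per the file headers, a mean signal for each group, a log2 fold change and raw and adjusted p-values, with no tool named. For the members its log2 fold changes are nearly identical to those of the DESeq2 fit made here. Depth was 12945436 to 17569730 counts a library.

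Groups were compared in R 4.3.3 with the quasi-likelihood test of edgeR 4.0.16 on all genes past its default filter, with TMM scaling and Benjamini-Hochberg adjustment over 16187 genes. Adjusted p-values in the report come from it unless DESeq2 1.42.0 or limma 3.58.1 (voom, trend) is named. Log2 fold changes are NG2 minus GFAP. The test was run first on simulated data. Cspg4 and Gfap were compared by exact permutation of log2(CPM + 0.5).

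The members and lists were chosen with earlier results of these data known. Of 115 list symbols 114 were found, and 1 is not analysed here. All members, the 4 other subunits and 4 regulators with the smallest p and the 5 genes of most like pattern for Actl6a and for Actl6b were named, except 1 that is not reported here. Alternatives are given in the closing section.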

Additional observations from a re-analysis of the deposited data

Results flagged for a closer look

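Dixon's ratio was taken in 30 sets of 5 libraries (10 genes and 5 ratios in each group). It divides the gap of an extreme library to the nearest other by the range of the set. The ratio exceeded the critical value of 0.71 in 2 sets, where chance gives about 5% of sets. In both, the extreme library was GFAP replicate 2. Smarca2 stood at 83.5 CPM there, against 108 to 118 CPM in the other GFAP libraries. The log2 FPKM ratio of Dpf3 over Phf10 stood at -3.24 there, and the other 4 GFAP libraries had -2.53 to -2.31.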

How the results depend on the processing

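Actl6b, Dpf1, Ss18l1 and Smarca2 kept a positive and Actl6a and Dpf3 a negative log2 fold change under all 20 alternatives, and the call of Actl6b, Dpf1 or Ss18l1 changed under those given in the report. Of the members called higher, DESeq2 and voom with sample weights gave 2 each, the fits with 1 library left out 0 to 1 (1 without NG2 replicate 5) and the fit without NG2 replicate 5 and GFAP replicate 2 gave 1. Voom also called 1 other subunit higher, 2 lower and 1 regulator lower, beside 3.61% of all genes tested higher and 5.29% lower. Small differences changed sign. Dpf2 was 0.0037 with RLE size factors, 0.0058 by DESeq2, 0.061 by voom, 0.0028 by limma-trend with either pseudocount and 0.0081 without both libraries, and -0.046 to 0.053 with 1 library left out. Ss18 was 0.057 by voom and 0.058 without both libraries, and -0.11 to 0.056 with 1 library left out. Phf10 was 0.017 without both libraries and -0.13 to 0.0079 with 1 left out, and Smarca4 -0.11 to 0.014. Gfap's log2 difference was -0.25 to 0.043 with 1 library left out.

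Over all genes, against 12 higher and 12 lower, the counts were 58 and 37 with no filter, 199 and 128 by DESeq2, 584 and 857 by voom, 109 and 154 without both libraries, and 9 and 3 by limma-trend on FPKM. With 1 library left out they ranged from 3 to 70 higher and 0 to 47 lower. The highest came without NG2 replicate 5, and the lowest, 3 and 0, without NG2 replicate 2 or GFAP replicate 1, 2 or 3. The cause of these differences was not tested. Limma-trend called 0 members. Same-numbered NG2 and GFAP libraries deviated together at r = -0.02 to 0.08 across genes, and 1 of the 5 numbers was the best match both ways. Whether they came from the same embryos or litter is not stated in the labels, and these values cannot decide it. With the replicate block, 1 gene was higher and 0 lower, 0 members were called, and Actl6b was at 0.54 (edgeR adjusted p = 0.273). The share of higher genes among those called was 40% with library size only and 50% with TMM. Dpf3 had the fewest reads of the members, and its SE was 0.33 with all libraries and 0.21 without NG2 replicate 5.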
